A study of Mus musculus with 6 samples.

Results

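The SLAM receptors are a family of immunoglobulin-like surface proteins of blood cells, and the genes examined here are Slamf1, Slamf6, Ly9, Cd84 and Cd48, with the adaptor gene Sh2d1b1. The 6 genes were taken by name from a table of 41669 gene symbols, and all 6 were present. B cells had been taken from the spleens of 3 female and 3 male mice of the NZB/W F1 hybrid, a cross prone to a lupus-like disease. All 6 mice were labelled late disease. After positive selection on a column, the cells had spent 24 h in culture with CpG, a B cell stimulus that acts through Toll-like receptor 9. Every library therefore came from stimulated cells of a mouse labelled late disease, with neither an unstimulated nor a healthy group. Sex was the only contrast in the labels. They give no measure of disease for each mouse, so sex and severity of disease cannot be told apart.

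Most SLAM receptors bind a copy of themselves on a neighbouring cell, while Cd48, which is held in the membrane by a lipid anchor and has no cytoplasmic tail, binds Cd2 and Cd244. The tails of most of the other receptors carry tyrosine motifs that recruit small SH2 adaptors of the SAP family, encoded by Sh2d1a, Sh2d1b1 and Sh2d1b2, or SH2 phosphatases in their place. SAP brings the kinase Fyn to the receptor, and the phosphatases SHP-1 (Ptpn6), SHP-2 (Ptpn11) and SHIP-1 (Inpp5d) can bind the same motifs. In T and NK cells this choice sets whether a receptor activates or inhibits. The receptor genes lie side by side on mouse chromosome 1, in a stretch that genetic studies of lupus-prone strains have linked to autoantibody production.

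In GRCm38 (GENCODE M21) the cluster ran for 394 kb from the start of Cd244 to the end of Slamf6 on chromosome 1. Its order was Cd244 (171559193 to 171609746, plus strand), Ly9 (171588624 to 171607410, minus), Slamf7 (171632403 to 171653035, minus), Cd48 (171682009 to 171705258, plus), Slamf1 (171767127 to 171801184, plus), Cd84 (171839697 to 171890718, plus) and Slamf6 (171917515 to 171953170, plus). Ly9 lies within the span of Cd244 on the opposite strand, sharing 18787 bases. Whether strand was used in counting is not given in the sources used here, so reads from any exons that the 2 genes share could not be assigned with certainty. Sh2d1b1 (170277320 to 170286769, plus) lies outside the cluster on the same chromosome.

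The starts of these genes are shown because 7 receptors of 1 locus were read out together. RefSeq (GRCm38.p6) gave the sequence upstream of the start for 6 of these 7 receptors and for Sh2d1b1. The 250 bases before the start of 5 receptors, those with the highest levels or with values that separated the sexes, are printed 5′ to 3′ on the strand of the gene. They are from the reference mouse strain and not from NZB/W F1. Capitals mark matches, on either strand, to the AP-1 motif TGANTCA or to the CCAAT box, CCAAT.
Cd84 (chr1:171839447-171839696, plus): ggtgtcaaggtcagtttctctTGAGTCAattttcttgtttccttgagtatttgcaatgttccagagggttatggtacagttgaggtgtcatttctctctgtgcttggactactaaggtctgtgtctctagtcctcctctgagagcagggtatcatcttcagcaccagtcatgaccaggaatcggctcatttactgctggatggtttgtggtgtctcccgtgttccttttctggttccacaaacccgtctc
Slamf7 (chr1:171649000-171649249, minus): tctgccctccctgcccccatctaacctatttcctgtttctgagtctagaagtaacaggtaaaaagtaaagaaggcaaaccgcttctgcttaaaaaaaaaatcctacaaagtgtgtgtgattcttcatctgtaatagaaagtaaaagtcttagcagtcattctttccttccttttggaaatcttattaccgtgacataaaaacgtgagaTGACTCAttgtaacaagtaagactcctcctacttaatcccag
Cd244 (chr1:171558943-171559192, plus): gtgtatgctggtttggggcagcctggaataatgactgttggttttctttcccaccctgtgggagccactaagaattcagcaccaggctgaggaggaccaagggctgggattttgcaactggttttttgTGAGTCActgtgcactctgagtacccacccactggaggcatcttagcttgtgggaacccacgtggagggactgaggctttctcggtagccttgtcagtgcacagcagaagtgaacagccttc
Slamf6 (chr1:171917212-171917461, plus): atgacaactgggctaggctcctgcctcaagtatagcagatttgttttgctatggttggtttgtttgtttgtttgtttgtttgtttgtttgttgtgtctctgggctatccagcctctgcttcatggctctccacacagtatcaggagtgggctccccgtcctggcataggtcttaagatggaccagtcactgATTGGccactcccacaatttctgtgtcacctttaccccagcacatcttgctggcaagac
Cd48 (chr1:171681742-171681991, plus): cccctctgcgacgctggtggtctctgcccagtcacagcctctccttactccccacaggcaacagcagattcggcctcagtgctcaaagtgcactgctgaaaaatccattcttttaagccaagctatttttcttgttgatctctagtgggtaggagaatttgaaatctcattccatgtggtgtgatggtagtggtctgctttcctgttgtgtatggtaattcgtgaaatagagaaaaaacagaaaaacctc

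In these windows Cd84, Slamf7 and Cd244 each held 1 AP-1 match, at 229, 42 and 122 bases before the RefSeq start, and Slamf6 held 1 CCAAT box. For Slamf7 the RefSeq start lies inside the GENCODE span given above, which runs to 171653035 on the minus strand. Its window, 171649000 to 171649249, and the AP-1 match in it therefore lie within that span. Cd48 and Slamf1 held neither. An AP-1 match was thus found in 3 of the 6 receptors of the cluster, and in 6.75% of all 32851 promoters over the same length, while 33.8% of all promoters held a CCAAT box. The windows of Slamf8 and Slamf9, which lie outside the cluster, held no AP-1 match. These motifs were chosen after the values were seen, so the shares are no test of enrichment. Sh2d1b1 had 2 AP-1 matches. None of the 6 receptors had the TATA motif TATAAA or the GC box GGGCGG, which 12.4% and 32.7% of all promoters hold. The 6 windows held 1 (Slamf6) to 4 (Cd48) CpG dinucleotides, against a median of 6 over all promoters. These letter matches are a description and not a measure of what binds there.

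The libraries held 24089561 to 35659883 estimated counts. Values are given as CPM, estimated counts scaled to a common column total, and 3 counts in 1 library, taken as the floor, correspond to 0.0841 to 0.125 CPM. Female mouse 3 stood apart on the first principal component (94.2, against -47.9 to 6.66 in the others) and had a TMM scaling factor of 0.816, against 0.993 to 1.07. The B cell markers Ms4a1 (CD20) and Pax5, named here after their values were seen, lay at 1424 to 1658 and 497 to 591 CPM. The B cell receptor components Cd79a and Cd79b lay at 4.61 to 29.4 and 5.20 to 51.9 CPM, with female mouse 3 lowest in each. T cell markers, over 11 genes, summed to 3.49 to 5.42 CPM in females and 1.31 to 3.35 in males. Cd3e was at most 0.0339 and Cd3g 0.225 CPM, and Cd5 and Thy1 were at 0 in all 6 libraries. Cd3d had 2.32 to 4.54 CPM in females and 0.476 to 2.00 in males. NK cell markers summed to 1.85 to 7.59 CPM over 9 genes, almost all of it Klrb1c (1.61 to 7.39), with Ncr1, Nkg7, Gzmb and Prf1 at 0. The neutrophil (S100a8, S100a9, Ly6g and others), platelet (Pf4, Ppbp, Itga2b and others) and erythroid (Hbb-bs, Hbb-bt, Hba-a1 and others) lists summed to at most 0.454, 0.335 and 2.34 CPM, and the dendritic cell list (Flt3, Zbtb46, Xcr1 and others) to 5.20 to 13.3 CPM. The erythroid sums were 0.684 to 2.34 CPM in females and 0.0178 to 0.422 in males.

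The 5 receptors were expressed in every library, and the adaptor was near the floor. Cd84, a self-binding receptor, had 148, 154 and 143 CPM in female mice 1 to 3 and 144, 197 and 176 CPM in male mice 1 to 3. Male mouse 1 lay among the females, so the sexes overlapped, and the females were close together (CV 3.49%). Slamf6, also self-binding and known from B, T and NK cells, had 137, 182 and 112 CPM in the females and 152, 203 and 149 CPM in the males. Female mouse 2 lay above male mice 1 and 3, and the spread was wide in both sexes. Cd48, the counter-receptor of Cd2 and Cd244, had 92.9, 90.4 and 72.2 CPM in the females and 89.8, 93.7 and 93.2 CPM in the males. Of these 6 values 5 lay within 1.04-fold of each other, and female mouse 3 was the low one.

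Ly9 (CD229), a self-binding receptor with a longer extracellular part than the others, had 86.2, 66.2 and 39.0 CPM in female mice 1 to 3 and 85.6, 89.0 and 87.0 CPM in the males. The males were nearly equal (CV 1.95%), while the females ran from the male level to below it (CV 37.2%). Slamf1 (CD150), the founding receptor of the family, had 12.3, 18.3 and 13.3 CPM in the females and 17.9, 21.1 and 20.6 CPM in the males. Only female mouse 2 reached the range of the males. Sh2d1b1, which encodes the adaptor EAT2 of NK and myeloid cells, had 0, 0.542 and 0.0565 CPM in the females and 0.286, 0.0726 and 0.0600 CPM in the males. That is 16.0 estimated counts in female mouse 2, 9.01 in male mouse 1 and fewer than 3 in each of the other 4 libraries, so no fold between the sexes is given.

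**Figure D1:**
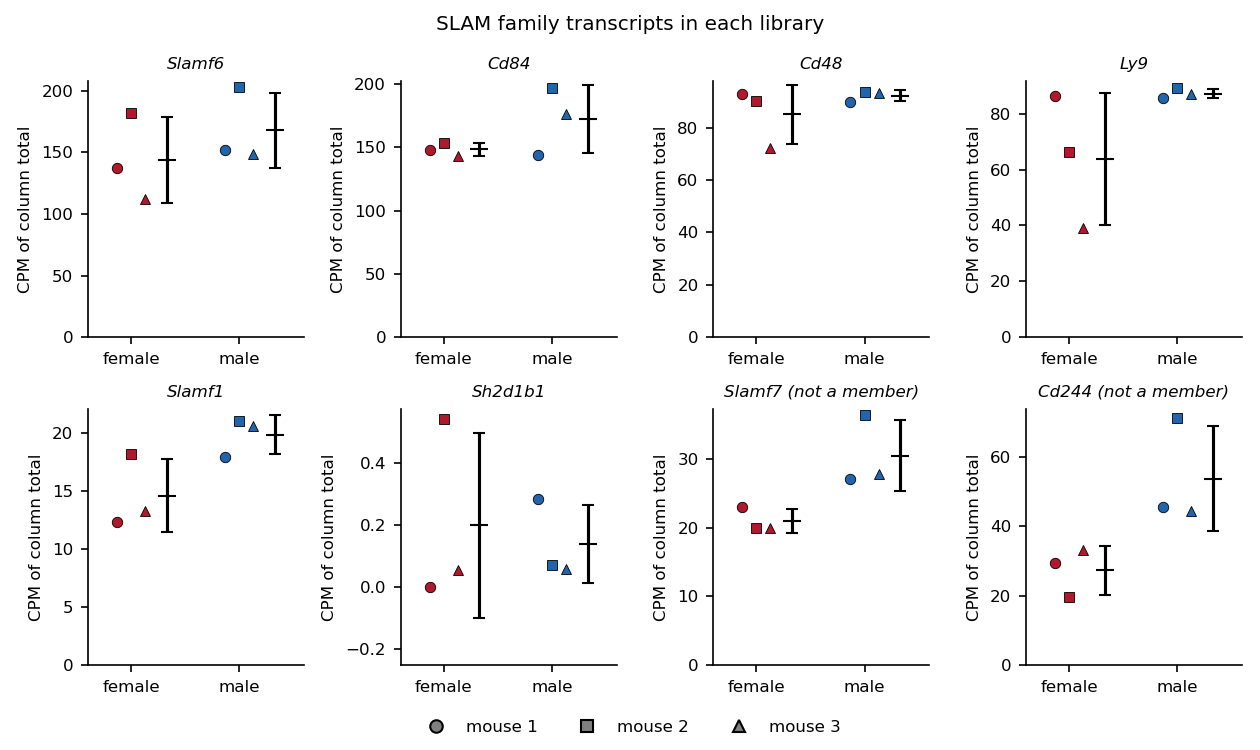
CPM of the column total (y axes, linear) for the 6 genes and for Slamf7 and Cd244, by sex, with 1 symbol per mouse and black bars for the mean ± SD (n = 3). The males of Ly9 lie between 85.6 and 89.0 CPM while its females spread from 39.0 to 86.2, and for Slamf7 and Cd244 every female lies below every male.

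The receptors shared the library in which they were highest. Male mouse 2 had the highest CPM of all 6 libraries for each of the 5 receptors and also for Cd244 and Slamf7, whereas it was the highest library for 23.8% of the 12172 genes tested. With TMM scaling it was highest for 6 of these 7 receptors, the exception being Cd48, and for 18.0% of the tested genes. Female mouse 3 was lowest for 4 of the 5 receptors on the column total, beside 51.4% of the tested genes, and for 1 of 5 (Ly9) with TMM scaling, beside 35.1%. The 5 receptors summed to 476, 510 and 380 CPM in female mice 1 to 3 and to 490, 604 and 525 CPM in male mice 1 to 3.

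Levels of different genes were compared per kilobase of the longest annotated transcript. On this scale Cd48 stood highest, at 74.8 ± 6.93 CPM per kb (SD, n = 6), above 93.6% of the tested genes. Cd84 followed at 46.7 ± 6.32, and its range of 41.8 to 57.4 did not reach that of Cd48 (60.9 to 79.0). Ly9 at 30.3 ± 7.94 and Slamf6 at 27.2 ± 5.62 CPM per kb overlapped, and Slamf6 lay above Ly9 in female mice 2 and 3 and below it in the other 4 libraries. Slamf1 was lowest of the receptors, at 3.90 ± 0.83, near the middle of all tested genes (50.7th percentile), and lay below the other 4 in every library.

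The order at the top depends on which transcript is taken. With the median transcript length of each gene, Slamf6 stood first in all 6 libraries at 156 CPM per kb, followed by Cd84 at 107, Cd48 at 84.2 and Ly9 at 35.0. The longest Slamf6 transcript has 5729 bases and the median one 0.998 kb, and the isoform in use was not measured. Slamf1 stayed last, at 4.85 CPM per kb.

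The rest of the family ran from moderate levels to none. Cd244, the 2B4 receptor of NK cells and monocytes that binds Cd48, had 10.8 ± 4.77 CPM per kb (SD, n = 6), and Slamf7 (CRACC), found on NK cells, plasma cells and activated B cells, had 6.48 ± 1.57. Cd2, the other partner of Cd48, had 4.11 ± 1.54 CPM per kb. Slamf9 was at 0.479 ± 0.241, and Slamf8, a macrophage receptor, had 0 counts in all 6 libraries. All 3 SAP family adaptors were at the bottom: Sh2d1b1 had 0.0666 ± 0.0816 CPM per kb, and Sh2d1a and Sh2d1b2 each had about 1 estimated count in 1 library and 0 in the other 5. The lowest value of Slamf1, 2.78 CPM per kb, exceeded the highest value of Sh2d1b1, 0.213, so the 5 receptors did not overlap with the adaptors. Slamf9, at 0.0861 CPM per kb in female mouse 3, and Slamf8 did.

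**Figure D2:**
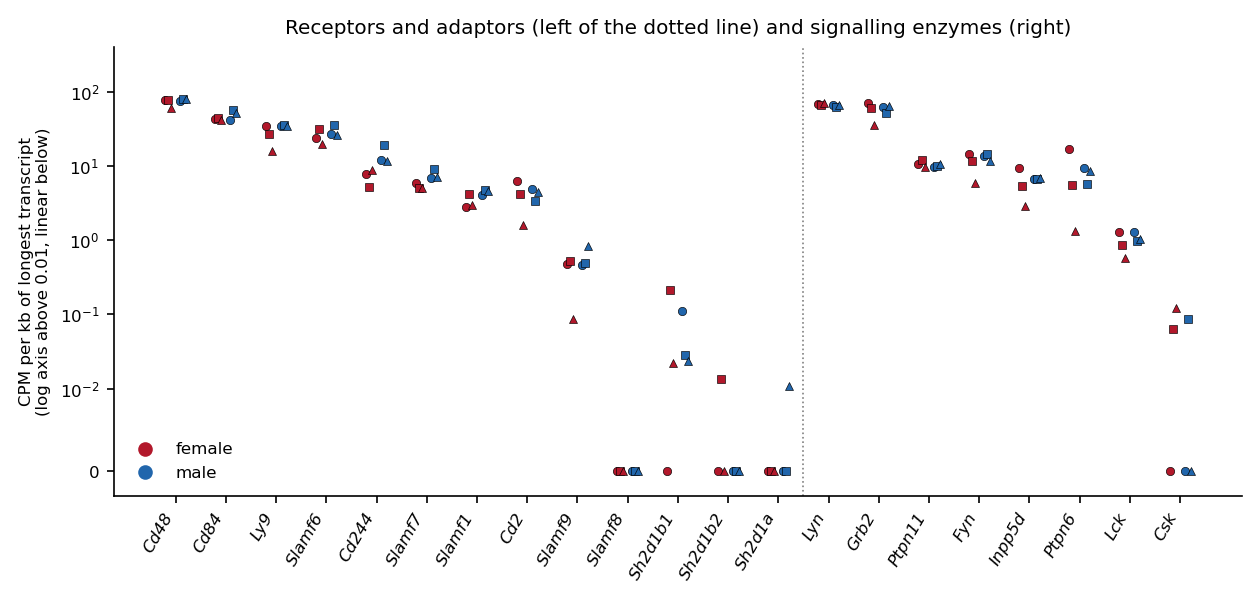
CPM per kb of the longest transcript (y axis, logarithmic above 0.01 and linear below) for each library, by sex, for SLAM receptors, Cd2 and adaptors on the left and signalling enzymes and adaptors on the right. The receptors Cd48 to Slamf1 lie at or above 2.78 in every library, the SAP family adaptors at or below 0.213, and those of Lyn, Grb2, Ptpn11 and Fyn lie in the same range as the receptors.

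The enzymes known to act below these receptors were measured in most cases. Of a list of 25 signalling genes, 23 passed the low-count filter. Lyn, the main Src family kinase of B cells, had 66.3 ± 2.58 CPM per kb, and Fyn, the partner of SAP, 11.9 ± 3.18. Lck, the T cell kinase, had 0.996 ± 0.263. Among the phosphatases Ptpn11 had 10.4 ± 0.97 CPM per kb, Ptpn6 7.84 ± 5.17 and Inpp5d 6.26 ± 2.12. Ptpn6 had 38.5, 12.6 and 3.03 CPM in female mice 1 to 3 and 21.8, 13.3 and 19.4 CPM in male mice 1 to 3. Its lowest value was in female mouse 3, as for Cd79a and Cd79b. Csk and Cbl, which most blood cells express, did not pass the filter and were listed at 0 in 3 and 5 libraries. A level listed near 0 in this table, that of the SAP family adaptors included, may therefore be a failed estimate and does not by itself show that the RNA was absent. Cd79a (4.61 to 29.4 CPM) and Cd79b (5.20 to 51.9 CPM) also lay far below Ms4a1 (1424 to 1658 CPM). Whether levels above 0 were estimated too low was not tested. The levels per kb and the percentiles given above carry that limit.

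Females were then compared with males over all genes with edgeR's quasi-likelihood test. The test called 7 of 12172 genes at an FDR of 0.05, 3 higher in females (0.0246% of genes) and 4 lower (0.0329%), together 0.0575%, and 0 of the 5 receptors that passed the low-count filter. Sh2d1b1 did not pass it and was not tested. The receptor nearest to a difference was Ly9, whose log2 fold change, taken as female over male, was -0.35 ± 0.20 (SE) with a 95% interval of -0.82 to 0.11. Its unadjusted edgeR p was 0.118 and its edgeR adjusted p 0.999. On the TMM scale its females, at 80.7, 66.6 and 47.7 CPM, all lay below its males, at 81.3 to 84.7 CPM, as for 4.59% of the tested genes, but female mouse 1 missed the lowest male by less than 1 CPM. In CPM of the column total the sexes overlapped. Without female mouse 3 the log2 fold change of Ly9 was -0.18, and without female mouse 1 it was -0.54. In the latter fit the unadjusted edgeR p was 0.0232 and the edgeR adjusted p 0.405.

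For Slamf1 the log2 fold change was -0.30 ± 0.23, with an interval of -0.84 to 0.24, and without female mouse 1 it was -0.13. Slamf6 had -0.10 ± 0.20 (-0.55 to 0.36) and Cd84 -0.07 ± 0.17 (-0.47 to 0.32). Both turned slightly positive without female mouse 1 (0.0033 and 0.0079) or without male mouse 2 (0.06 and 0.03). Cd48 had 0.01 ± 0.12 and the narrowest interval of the 5, -0.27 to 0.30, or 0.827-fold to 1.23-fold. With library totals only it was -0.11, beside a shift of the median of all genes to -0.12. The median over the 5 tested receptors was -0.10, with 4 of 5 negative, against 0.00 and 49.9% negative over all tested genes. None of the 13 alternative settings called any of the 5 receptors, DESeq2 and limma-voom included. Sh2d1b1 was fitted only in DESeq2 and with no low-count filter, and neither called it. At an unadjusted p under 0.05 edgeR on all 6 libraries also counted 0 of 5 (2.89% of all tested genes).

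**Figure D3:**
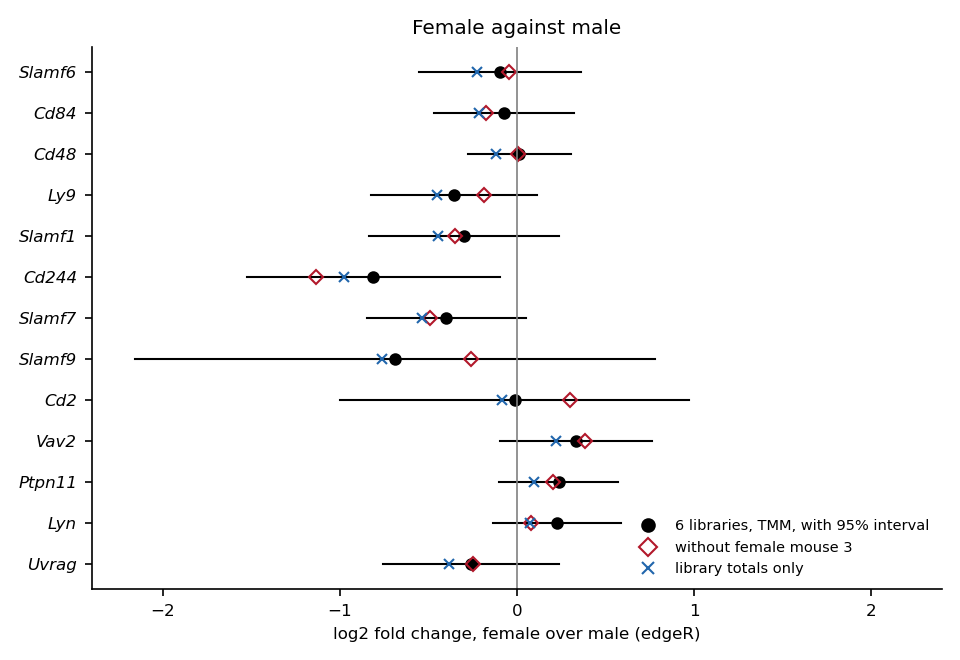
Log2 fold change, female over male, with its 95% interval (black, edgeR on 6 libraries with TMM scaling), without female mouse 3 (red diamonds) and with library totals only (blue crosses). The intervals of all 5 receptors of the list span 0, that of Cd48 is the narrowest, and that of Cd244 lies between -1.52 and -0.10.

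Among the other family members, Cd244 and Slamf7 had lower values in every female than in every male. Cd244 had 29.4, 19.5 and 33.1 CPM in female mice 1 to 3 and 45.7, 71.3 and 44.4 CPM in male mice 1 to 3. No female reached the lowest male, with or without TMM scaling. The log2 fold change was -0.81 ± 0.31 (SE), or 0.571-fold (95% interval 0.348 to 0.935), with an unadjusted edgeR p of 0.0309 that did not pass adjustment over all genes (adjusted p = 0.999). The unadjusted edgeR p was above 0.05 without female mouse 1 (0.0662), female mouse 2 (0.112) or male mouse 2 (0.126). It was below 0.05 without female mouse 3 (0.00304), male mouse 1 (0.0376) or male mouse 3 (0.0355), and none of these passed adjustment. The log2 fold change was -1.13 without female mouse 3.

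Slamf7 had 23.1, 20.0 and 20.0 CPM in the females and 27.2, 36.5 and 27.9 CPM in the males. The females were close together (CV 8.49%), and the gap to the lowest male was 27.2 against 23.1 CPM. The log2 fold change was -0.40 ± 0.19, with an unadjusted edgeR p of 0.0762 (adjusted p = 0.999) and an interval of -0.85 to 0.05. It was -0.25 without male mouse 2 (unadjusted edgeR p 0.226), -0.49 without female mouse 3 (0.0369) and -0.54 with library totals only (0.0280). None of these passed adjustment. Lower values in all 3 females than in all 3 males were found for 7.55% of the tested genes in CPM of the column total and for 4.59% with TMM scaling. In the list of other receptors, adaptors and counter-receptors this held for 2 of the 4 that passed the filter, and none was called by edgeR.

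The other 2 tested genes of that list did not differ beyond their spread. Cd2 had 7.11, 4.87 and 1.84 CPM in the females and 5.63, 3.88 and 5.09 CPM in the males (log2 fold change -0.01 ± 0.42). Its direction followed single libraries, with 0.30 without female mouse 3. Slamf9 had 0.619, 0.678 and 0.113 CPM in the females and 0.603, 0.653 and 1.11 CPM in the males (-0.69 ± 0.63), which is 4.03 to 36.9 estimated counts. Its log2 fold change was -0.26 without female mouse 3, -0.35 without male mouse 3 and -1.08 without female mouse 2.

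Markers of other cells that express Cd244 or Slamf7 were set beside these values. The monocyte and macrophage list of 12 genes, among them Lyz2, Csf1r and Adgre1 (deposited as Emr1), summed to 10.3 to 15.9 CPM in females and 3.46 to 5.25 in males. Of its genes 7 of 7 that passed the filter had a positive log2 fold change, and 4 had an unadjusted edgeR p under 0.05 (2.89% of all tested genes). In 4 of the 7 every female lay above every male on both scales, as for 2.69% (column total) and 4.42% (TMM) of the tested genes. Lyz2 had a log2 fold change of 3.15 ± 0.40 (edgeR adjusted p = 0.0837). EdgeR called none of the 7, and Csf1r was at most 0.137 CPM. Of the plasma cell list, which includes Sdc1 and Xbp1, 4 of 5 tested genes were positive, and the list summed to 269 to 455 CPM in females and 247 to 294 in males. Prdm1, the regulator of plasma cell formation, had 22.1, 61.5 and 22.9 CPM in the females and 11.7 to 12.9 in the males (log2 fold change 1.63 ± 0.39, edgeR adjusted p = 0.999). The other 2 named plasma cell genes showed no such gap: Sdc1 averaged 2.20 CPM in females and 2.37 in males, and Xbp1 105 and 114, with log2 fold changes of 0.0032 and -0.0003. With TMM scaling 3 of the 5 tested plasma cell genes were higher in every female than in every male, and 2 on the column total. That held for 4.42% and 2.69% of all tested genes. The median log2 fold change over these 5 genes was 0.58, and edgeR called none. The 1 NK cell gene that passed the filter, Klrb1c, had 2.10, 7.39 and 2.46 CPM in the females and 2.00, 3.81 and 1.61 CPM in the males, which overlapped (0.82 ± 0.57). The NK cell genes Ncr1, Nkg7, Gzmb and Prf1 were listed at 0. The part of these cells in the Cd244 and Slamf7 values was not tested. In RNA from a whole culture, fewer cells with a transcript and less of it per cell cannot be told apart.

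**Figure D4:**
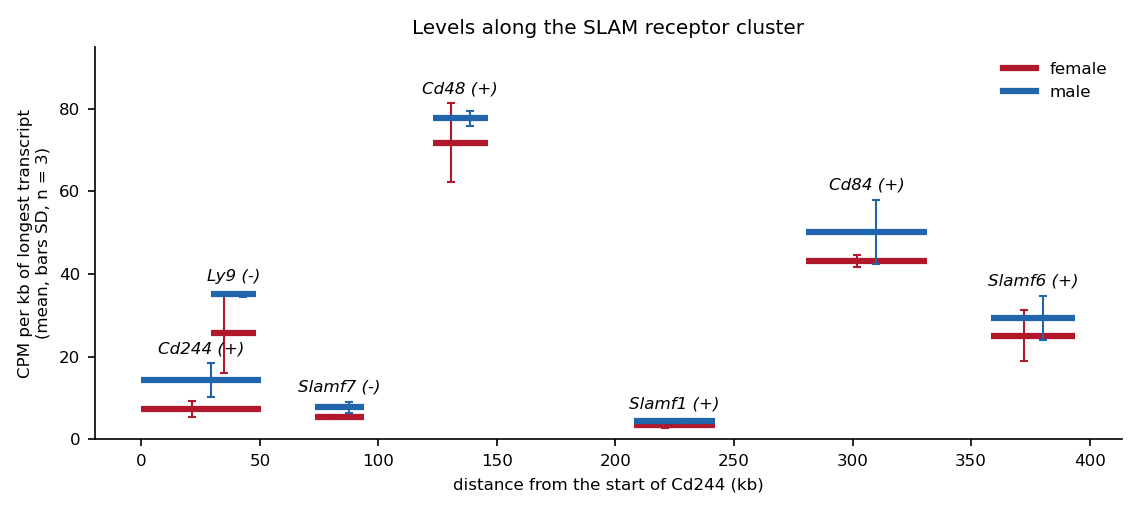
Mean CPM per kb of the longest transcript (y axis; bars show the SD, n = 3 per sex) along the SLAM receptor cluster, with each gene drawn over its own span in kb from the start of Cd244 and its strand in brackets. Female means lie below male means for all 7 receptors on this scale, which uses column totals; with TMM scaling Cd48 has a log2 fold change of 0.01.

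Along the cluster, 6 of 7 receptors were negative, and the median log2 fold change was -0.30. With library totals only 7 of 7 were negative, beside 8094 of the 12172 tested genes. Without male mouse 1 the count was also 7 of 7, and without female mouse 1 or without male mouse 2 it fell to 4 of 7. Levels did not follow position: Cd48, the highest per kb of the longest transcript, and Slamf1, the lowest, are neighbours. Of 14 genes listed from around the cluster, 10 passed the filter, 5 were positive and 5 negative with a median of 0.00, and edgeR called none. Arhgap30, a GTPase-activating protein gene, had 234 to 289 CPM, with a log2 fold change of 0.19 ± 0.14 that was 0.12 without female mouse 3 and 0.05 with library totals only. With TMM scaling its females, at 260 to 297 CPM, all lay above its males, at 222 to 258, as for 4.42% of the tested genes, and on the column total the sexes overlapped. Pea15a, which encodes a death-effector domain protein, had 13.4, 9.66 and 5.44 CPM in the females and 14.1, 14.3 and 14.9 CPM in the males (-0.51 ± 0.27), with every female below every male on both scales, as for 7.55% (column total) and 4.59% (TMM) of the tested genes. Without female mouse 3 its log2 fold change was -0.32. Dcaf8 (-0.15 ± 0.16) and the coatomer gene Copa (-0.20 ± 0.23) had intervals that spanned 0, and both depended on single libraries. Without female mouse 3 they were -0.05 and -0.0009, and without female mouse 1 they were -0.24 and -0.45.

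The signalling list held no call either. Of its 23 tested genes 12 were positive and 11 negative, with a median of 0.01. Lyn had 234, 232 and 241 CPM in the females and 227, 214 and 230 CPM in the males, so in CPM of the column total every female lay above every male, as for 2.69% of all tested genes. With TMM scaling the sexes overlapped, with a log2 fold change of 0.23 ± 0.16 that was 0.08 with library totals only and also without female mouse 3. Vav2, a guanine nucleotide exchange factor gene, had 0.33 ± 0.19, Ptpn11 0.24 ± 0.14 and the autophagy gene Uvrag -0.26 ± 0.21, all with intervals that spanned 0. Vav2 was 0.19 without female mouse 1 and 0.22 with library totals only, Ptpn11 was 0.10 with library totals only, and Uvrag was -0.04 without male mouse 2. With TMM scaling the females of Vav2, at 29.6 to 39.5 CPM, all lay above the males, at 24.0 to 28.6, as for 4.42% of the tested genes. On the column total the sexes overlapped. Fyn had 51.5, 42.0 and 21.1 CPM in the females and 47.9, 51.0 and 41.7 CPM in the males, and its low value was in female mouse 3.

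Ly9 had the widest range of the 5 receptors over the 6 libraries, 0.83 log2 units with TMM scaling, followed by Slamf1 (0.80), Slamf6 (0.59), Cd84 (0.46) and Cd48 (0.09). The tested genes with the pattern most like Ly9, by the root mean square difference of their log2 CPM deviations over the 6 libraries, were Cenpn (0.0451), Phf23 (0.0485) and Spg21 (0.0568), out of 12171 compared. Cenpn, a centromere protein gene, had 28.9, 21.4 and 12.7 CPM in the females and 28.1, 27.2 and 29.2 in the males. Like Ly9, it was level in the males and lowest in female mouse 3.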

How the data were processed

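RNA of 6 mice was sequenced, 1 library per mouse. The authors deposited 1 table of estimated counts with 41669 symbols. The tools named in the submitters' processing notes are kallisto and DESeq2, and the build is GRCm38.p6. Versions and settings: not given in the sources used here. These counts are not scaled to a common depth. They were rounded for tests. CPM is of the column total; CPM per kb divides it by the longest GENCODE M21 transcript. Cd244 and Emr1 are older symbols of Cd244a and Adgre1.

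The sexes were compared in edgeR 4.0.16 under R 4.3.3, with filterByExpr, TMM, glmQLFit and glmQLFTest, Benjamini-Hochberg adjustment over 12172 genes at an FDR of 0.05. Standard errors are the absolute log2 fold change over the square root of F, and intervals are 95%. The test was also run on simulated counts with the same dispersion for every gene and no library set apart. That run does not cover a library like female mouse 3. Alternatives were DESeq2 1.42.0, limma-voom (limma 3.58.1), RLE factors, library totals only, no filter, 1 CPM in 3 libraries, the mouse number as a block, median transcript length, and each library left out.

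Members and lists were chosen with earlier results of these data known. Named genes were all family genes, called genes of the signalling and neighbour lists or else the 4 with the smallest p at a mean of at least 5 CPM, the first 3 of each marker list (1 of them is not reported here), and the 3 genes most like the most variable member; Fyn, Lck, Grb2, Ptpn6, Inpp5d, Csk, Cbl, Ms4a1, Pax5, Cd5, Thy1, Gzmb and Prf1 were added after their values were seen. Motifs were also chosen then. The floor and all spreads cover these libraries only; the labels name a separate mouse for each, so the spread is between animals.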

Additional observations from a re-analysis of the deposited data

How the results depend on the processing

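None of the 5 tested receptors was called in any of the 13 alternatives, and Sh2d1b1, fitted in 2 of them, was not called there; Ly9, Slamf1, Slamf7, Slamf9 and Cd244 kept a negative log2 fold change in each alternative that tested them. Over these alternatives the log2 fold change ran from -0.54 to -0.18 for Ly9, from -0.44 to -0.13 for Slamf1, from -0.54 to -0.25 for Slamf7 and from -1.13 to -0.55 for Cd244, whose adjusted p was 0.414 or more. Values near 0 changed sign: Slamf6 and Cd84 were 0.0033 and 0.0079 without female mouse 1 and 0.061 and 0.034 without male mouse 2, Cd48 was -0.11 with library totals only and -0.0075 without male mouse 1, and Cd2 was 0.30 without female mouse 3, 0.10 without male mouse 1 and 0.024 without male mouse 3. With 1 library left out, these 4 genes ran from -0.26 to 0.061 (Slamf6), -0.19 to 0.034 (Cd84), -0.0075 to 0.029 (Cd48) and -0.37 to 0.30 (Cd2). The median over the tested receptors of the list ran from -0.26 to 0.03. The count of all genes called higher and lower in females was 21 and 11 with DESeq2, and 5 were higher with no low-count filter; with 1 library left out the counts ran from 2 to 6 and from 1 to 6. The cause was not tested. The block for the mouse number left the counts at 3 and 4, with a log2 fold change of -0.83 for Cd244 and -0.39 for Ly9. Same-numbered mice had deviations that correlated over genes at 0.22, 0.04 and 0.07, and differently numbered mice at -0.21 to 0.12. These values do not settle whether the numbers pair the animals. The labels do not state a pairing, so none was used in the main test. With the median transcript length in place of the longest, the level per kb was 156 for Slamf6, 107 for Cd84, 84.2 for Cd48 and 4.85 for Slamf1. Sh2d1b1, Sh2d1a, Sh2d1b2 and Slamf9 had few counts in these libraries, and the cause was not tested.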
